A study of Mus musculus with 16 samples.

Results

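The transcripts described here encode 10 enzymes that cut peptides: 6 of the cell membrane (Mep1a, Mep1b, Ace, Mme, Dpep1 and Xpnpep2) and 4 of the cytosol (Cndp2, Xpnpep1, Lap3 and Npepps). They were chosen by name and by their place in the cell, since they cut peptides and the missing transporter carries small peptides. No threshold on their values was used, but earlier results of these data were known when they were chosen. All 10 were named by single-gene probes and all 10 entered the test, out of 6191 genes tested. The arrays compared RNA from the right kidneys of 4 male Pept2-/- mice, each on 4 two-colour cDNA arrays, with a single pool of RNA from 5 right kidneys of wild-type mice. All mice came from 1 Pept2+/- line on a mixed C57BL/6 and 129Sv background, were males of 88 (±2) days and were killed in the morning between 8 and 10. How the allele was made, and in which cells it acts, are not given in the sources used. Each value is a log2 ratio of knockout over pool, in which -1 means that the knockout kidney held 50% of the pool's level. The pool was never split into single wild-type animals, so no test below takes in how far wild-type kidneys differ from each other.

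PEPT2, the product of Slc15a2, takes up dipeptides and tripeptides from the filtrate across the luminal membrane of the proximal tubule. Peptidases of the brush border cut filtered oligopeptides into the small peptides and amino acids that such carriers take up, and peptidases of the cytosol cut the small peptides after uptake. Meprin, neprilysin and angiotensin-converting enzyme are abundant ectoenzymes of this membrane, and they also inactivate or activate peptide hormones.

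Slc15a2 itself was lower in knockout kidney on 16 of 16 arrays. The mice stood at -2.17, -2.74, -2.81 and -2.33, with a mean log2 ratio of -2.51 (SE 0.10, n = 4 mice, limma adjusted p = 2.17e-05). The sign of this gene also fixed the direction in which all ratios are read, since the labels do not name the numerator channel. Under the opposite reading each "higher" and "lower" below would be exchanged, with the same sizes and p-values. Arrays carried values for 50.2% to 91.1% of 20205 probes, and the number of mice limits the precision of each ratio. Svs5, a seminal vesicle gene and the 1 measured marker of 8 listed for male accessory glands, stood at 0.21, -0.09, 4.94 and 1.09 in mice 1 to 4, and its part in the values of the peptidases was not tested. Of the proximal tubule markers 1 passed the threshold: Slc22a8, an organic anion carrier, was higher at 0.48 (SE 0.05, limma adjusted p = 0.0149), above the pool in all 4 mice. These markers had a median of 0.03 (6 of 9 measured genes above 0, from -0.10 to 0.48), and leukocyte markers one of 0.07 (5 of 6 above 0). Of all 6191 genes 2986 were above 0.

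No peptidase passed the adjusted threshold of 0.05 in limma, where 0.21% of all genes did (0.145% lower and 0.0646% higher). At an unadjusted p under 0.05 there were 5 of the 10, against 16.8% of all genes. Of these, 4 were lower (Cndp2, Mep1b, Ace and Lap3), where 10% of all genes were lower at that p, and Xpnpep1 was higher, where 6.8% were. The log2 ratio was below 0 for 8 of 10 peptidases against 51.8% of all genes. In 6 of 10 the ratio had the same sign in all 4 mice, as in 25.7% of all genes, and 5 of these were below 0 in each mouse, as in 14.3%. Their median was -0.12, against -0.00 for all 6191 genes. These counts and shares describe a list chosen with earlier results of these data known, and are not a test of it. The sizes were small: the lowest gene stood at 83.2% of the pool and the highest at 112% of it. In this tissue RNA, fewer cells of a type and less RNA per cell cannot be told apart.

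**Figure D1:**
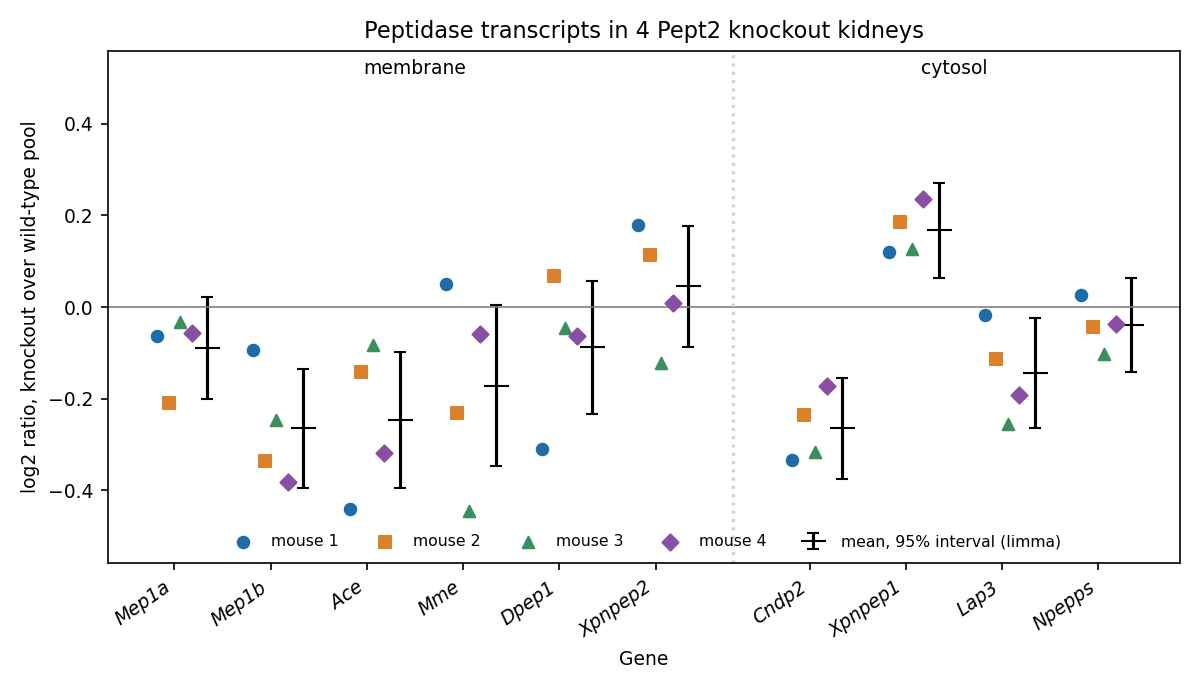
The vertical axis is the log2 ratio of knockout over wild-type pool for each of the 10 peptidases on the horizontal axis. Coloured points are the 4 mice, and the black mark with its bar is the mean with the 95% interval of limma. Intervals leave out 0 for 5 genes: Mep1b, Ace, Cndp2 and Lap3 below it and Xpnpep1 above it.

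Promoters are shown for 3 genes: Mep1a close to the pool, Ace with values that differ between arrays and Xpnpep1 above the pool on every array. Each is the 250 bases before a start site in the RefSeq table of build GRCm38.p6, from 5′ to 3′ on the gene's strand. Capitals mark matches to the GC box (GGGCGG), the core of the HNF1 motif (GTTAAT) or the TATA box (TATAAA), each searched on both strands.
Mep1a, chr17:43502774-43503023, minus strand: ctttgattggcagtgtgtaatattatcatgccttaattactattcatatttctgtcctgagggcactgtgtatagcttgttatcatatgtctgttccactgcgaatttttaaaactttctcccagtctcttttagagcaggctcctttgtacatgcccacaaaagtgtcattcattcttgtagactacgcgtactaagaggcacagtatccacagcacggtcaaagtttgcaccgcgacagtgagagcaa
Ace, chr11:105967698-105967947, plus strand: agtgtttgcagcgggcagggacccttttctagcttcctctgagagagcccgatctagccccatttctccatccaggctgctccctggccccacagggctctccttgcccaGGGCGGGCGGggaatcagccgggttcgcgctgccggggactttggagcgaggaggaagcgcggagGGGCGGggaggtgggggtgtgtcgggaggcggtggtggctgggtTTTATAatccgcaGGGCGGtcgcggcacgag
Xpnpep1, chr19:53038571-53038820, minus strand: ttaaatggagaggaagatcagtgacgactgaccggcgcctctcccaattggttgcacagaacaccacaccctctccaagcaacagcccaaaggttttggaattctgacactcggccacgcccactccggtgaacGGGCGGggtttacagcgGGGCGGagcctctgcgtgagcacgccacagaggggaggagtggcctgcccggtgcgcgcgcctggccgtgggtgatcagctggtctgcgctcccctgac
The Mep1a window has a GC content of 41.6% and no match to the 3 motifs. The Ace window, at 67.2% GC, holds 4 GC boxes, of which 2 overlap, and 1 TATA box read on the opposite strand. The Xpnpep1 window, at 63.2% GC, holds 2 GC boxes. Of 32841 promoter windows of this length, 32.7% hold a GC box, 12.4% a TATA box and 6.43% the HNF1 core, and the median GC content is 52.4%. The table held 12 starts for 8 of the 10 genes, all but Cndp2 and Mep1b. Every window of the cytosolic genes Lap3, Npepps and Xpnpep1 held at least 2 GC boxes, with GC contents from 56% to 77.2%. The windows of Mep1a, Dpep1 and Xpnpep2 held none, with GC contents from 41.6% to 53.6%. Ace has a further start at chr11:105974939-105975188, without a match to any of the 3 motifs, and Mme has 3 starts with 1 to 2 GC boxes each. None of the 12 windows held the HNF1 core. These matches are letters in a window and say nothing of binding.

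The meprins are zinc proteases of the proximal tubule brush border whose alpha and beta subunits are encoded by Mep1a (gene identifier 17287) and Mep1b (17288). Mep1b was below the pool on 16 of 16 arrays, from -0.64 to -0.02 with a median of -0.19. Among the 2826 genes with a value on every array from at least 1 probe, 1.13% were below 0 on all 16. By mouse Mep1b stood at -0.09, -0.34, -0.25 and -0.38, with mouse 1 nearest to 0 and mouse 4 lowest. The arrays of mouse 4 were uneven, at -0.64 and -0.58 on arrays 1 and 2 and at -0.20 and -0.11 on arrays 3 and 4. Over all mice arrays 1 and 2 gave -0.31 and arrays 3 and 4 gave -0.22. The mean was -0.26 (SE 0.06, n = 4 mice, 95% interval -0.39 to -0.13), which is 1.2-fold lower. The limma p was 0.00143 and the adjusted p 0.145, so Mep1b did not pass over all genes.

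Mep1a, whose product pairs with meprin beta or is secreted, lay closer to the pool. Its arrays ran from -0.35 to 0.09 with a median of -0.08, and 13 of 16 were below 0. The mice stood at -0.06, -0.21, -0.03 and -0.06, so that mouse 2 lay apart from the other three. The mean was -0.09 (SE 0.05, 95% interval -0.20 to 0.02, limma adjusted p = 0.369). Across the 16 arrays the correlation of the 2 meprin genes was 0.02, over arrays that share 4 kidneys and 1 pool. The difference between the subunits was not tested.

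Ace (11421) encodes angiotensin-converting enzyme, a dipeptidyl carboxypeptidase of brush border and endothelium that makes angiotensin II and degrades bradykinin. Its mice stood at -0.44, -0.14, -0.08 and -0.32, all below the pool, and the mean was -0.25 (SE 0.06, 95% interval -0.39 to -0.10, limma p = 0.00471, adjusted p = 0.163). The single arrays were uneven. Ace stood at -1.21 on array 2 of mouse 1, and at -0.71 and -0.53 on arrays 2 and 1 of mouse 4. The next lowest was -0.37, on array 1 of mouse 1, and the other 11 values lay between -0.20 and 0.06. Array 1 of mouse 2 had no value. On arrays 3 and 4 of every mouse the mean was -0.07 (adjusted p = 0.512), against -0.41 on arrays 1 and 2. Without array 2 of mouse 1 the mean was -0.17 (adjusted p = 0.197). The spread between arrays of 1 mouse, with a term for the channel, was a standard deviation of 0.36, larger than for 96.4% of all genes, where the median was 0.17.

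The gene whose array profile was most like that of Ace was Rps12, a ribosomal protein gene of the small subunit, with r = 0.98 over 15 arrays. Without the 2 arrays where Ace lay farthest from its median r was 0.89. Rps12 stood at -1.44 on array 2 of mouse 1 and at -0.70 and -0.53 on arrays 2 and 1 of mouse 4, the same 3 arrays on which Ace was lowest. The next was Dmbt1, a gene of a secreted scavenger receptor protein, with r = 0.95, and 0.72 without those 2 arrays. On arrays 3 and 4 of mouse 4 Rps12 was above the pool at 0.07 on each. The endothelium, which also makes Ace, had 5 measured markers of 9 listed, all below 0, where 51.8% of all genes were. Their median was -0.10 (from -0.19 to -0.02), and by mouse -0.01, -0.13, -0.15 and -0.06. The part of these markers in the Ace ratio was not tested, over all mice or by mouse.

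**Figure D2:**
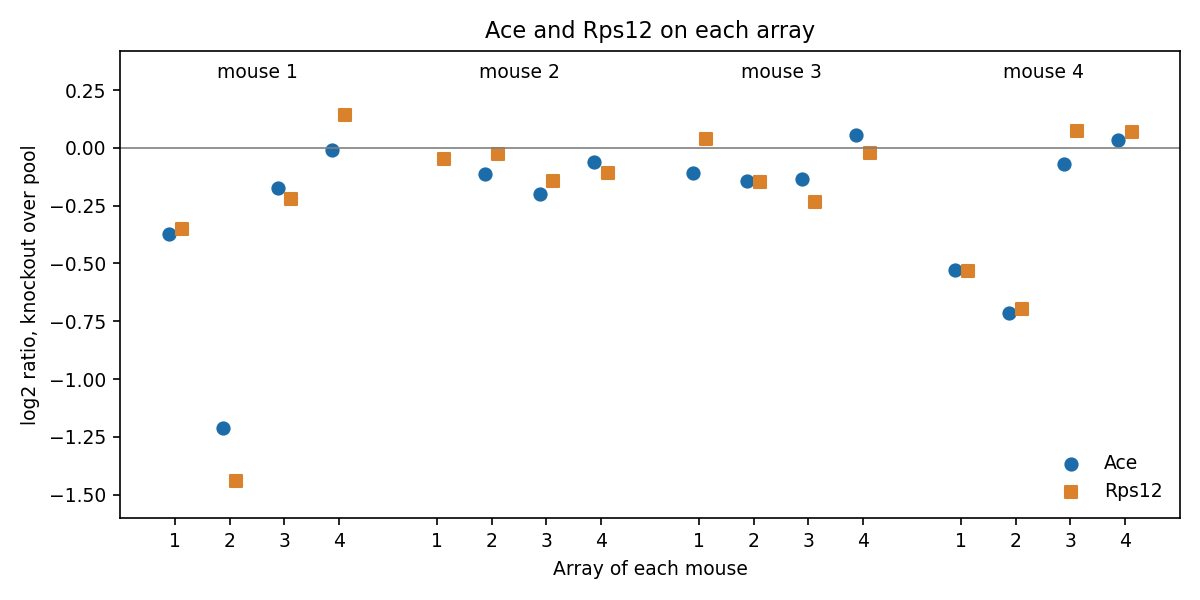
The log2 ratio of knockout over pool is plotted for Ace (circles) and Rps12 (squares) on each of the 4 arrays of each mouse. Both are lowest on array 2 of mouse 1 (-1.21 and -1.44) and low on arrays 1 and 2 of mouse 4, while arrays 3 and 4 of mouse 4 lie near 0.

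Mme (17380) encodes neprilysin, a zinc endopeptidase that degrades natriuretic peptides and enkephalins. The mice stood at 0.05, -0.23, -0.45 and -0.06, with mouse 3 lowest and mouse 1 above the pool. The mean was -0.17 (SE 0.08, 95% interval -0.35 to 0.00, limma adjusted p = 0.306). Arrays with a value (14 of 16) ran from -0.47 to 0.30. The mean was -0.07 with knockout RNA in channel 1 and -0.28 with it in channel 2. Mme was the 1 peptidase of 10 at an unadjusted p under 0.05 for this difference between orientations (p = 0.0461, limma adjusted p = 0.251), where 19.5% of all genes were and none passed after adjustment.

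Dpep1 and Xpnpep2 had the mean ratios nearest to 0 among the membrane genes, with Mep1a level with Dpep1. Dpep1 (13479), a dipeptidase held in the brush border by a glycolipid anchor that also hydrolyses leukotriene D4, stood at -0.31, 0.07, -0.05 and -0.06 in the 4 mice. Its mean was -0.09 (SE 0.06, 95% interval -0.23 to 0.06, limma adjusted p = 0.489), and mouse 1 alone was far below the others, with values on 2 of its 4 arrays. Xpnpep2 (170745), the anchored aminopeptidase P that removes an amino acid in front of proline, stood at 0.18, 0.11, -0.12 and 0.01. Its mean was 0.04 (SE 0.06, 95% interval -0.09 to 0.18, limma adjusted p = 0.70), from 13 arrays, and 10 of these were above 0. Without mouse 1 the mean of Xpnpep2 was 0.00.

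Among the cytosolic enzymes the clearest ratio was that of Cndp2 (66054), a dipeptidase that hydrolyses a broad range of dipeptides and is abundant in kidney. It was below the pool on 16 of 16 arrays, from -0.50 to -0.04 with a median of -0.26. The mice stood at -0.34, -0.24, -0.32 and -0.17, all below 0 and without a mouse apart. The mean was -0.27 (SE 0.05, n = 4 mice, 95% interval -0.37 to -0.16), which is 1.2-fold lower. Its limma p of 0.000463 ranked 27 among 6191 genes and its adjusted p was 0.102, the smallest among the peptidases. It passed in limma when only probes with a value on all 16 arrays were used (adjusted p = 0.0392, 2681 genes, the same mean). It also passed when its first probe stood for the gene (limma adjusted p = 0.0439).

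Cndp2 had 2 probes, and both were below the pool in all 4 mice. One stood at -0.33, -0.29, -0.40 and -0.26 in the mice (mean -0.32, SE 0.05, limma adjusted p over probes = 0.081), and was below 0 on 16 of 16 arrays. The other stood at -0.34, -0.18, -0.23 and -0.09 (mean -0.21, SE 0.05, adjusted p = 0.204), and was below 0 on 14 of 16. The correlation of the probes over the 16 arrays was 0.46. It was 0.25 over arrays with knockout RNA in channel 1 and 0.52 over those with it in channel 2. Of the 11 probes of the 10 genes none passed over all probes in limma, where 0.0926% of 10804 did, and 6 were at an unadjusted p under 0.05, where 16.3% were. With knockout RNA in channel 1 Cndp2 stood at -0.20, and in channel 2 at -0.33. The orientation difference was at an unadjusted p of 0.129 (limma adjusted p = 0.38).

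Xpnpep1 (170750), the cytosolic aminopeptidase P and counterpart of Xpnpep2, was above the pool on 16 of 16 arrays, from 0.01 to 0.37 with a median of 0.16. Among the 2826 genes with a value on every array from at least 1 probe 0.283% were above 0 on all 16. The mice stood at 0.12, 0.19, 0.13 and 0.24, all above 0. The mean was 0.17 (SE 0.05, n = 4 mice, 95% interval 0.06 to 0.27), which is 1.12-fold higher, with a limma p of 0.00571 and an adjusted p of 0.17. Arrays 1 and 2 gave 0.17 and arrays 3 and 4 gave 0.16. Xpnpep1 thus stood on the opposite side of the pool from Cndp2 in every mouse.

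Lap3 (66988), a leucine aminopeptidase that also cuts the dipeptide Cys-Gly in glutathione turnover, was below 0 in all 4 mice at -0.02, -0.11, -0.26 and -0.19. Mouse 1 was nearly level with the pool and mouse 3 lowest. The mean was -0.14 (SE 0.05, 95% interval -0.26 to -0.02, limma p = 0.0234, adjusted p = 0.229), and 12 of 16 arrays were below 0. Npepps (19155), the puromycin-sensitive aminopeptidase that trims peptides downstream of the proteasome, stood at 0.03, -0.04, -0.10 and -0.04. Its mean was -0.04 (SE 0.05, 95% interval -0.14 to 0.06, limma adjusted p = 0.668), with 9 of 16 arrays below 0. Its mean was 0.010 with knockout RNA in channel 2 and -0.09 with it in channel 1.

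**Figure D3:**
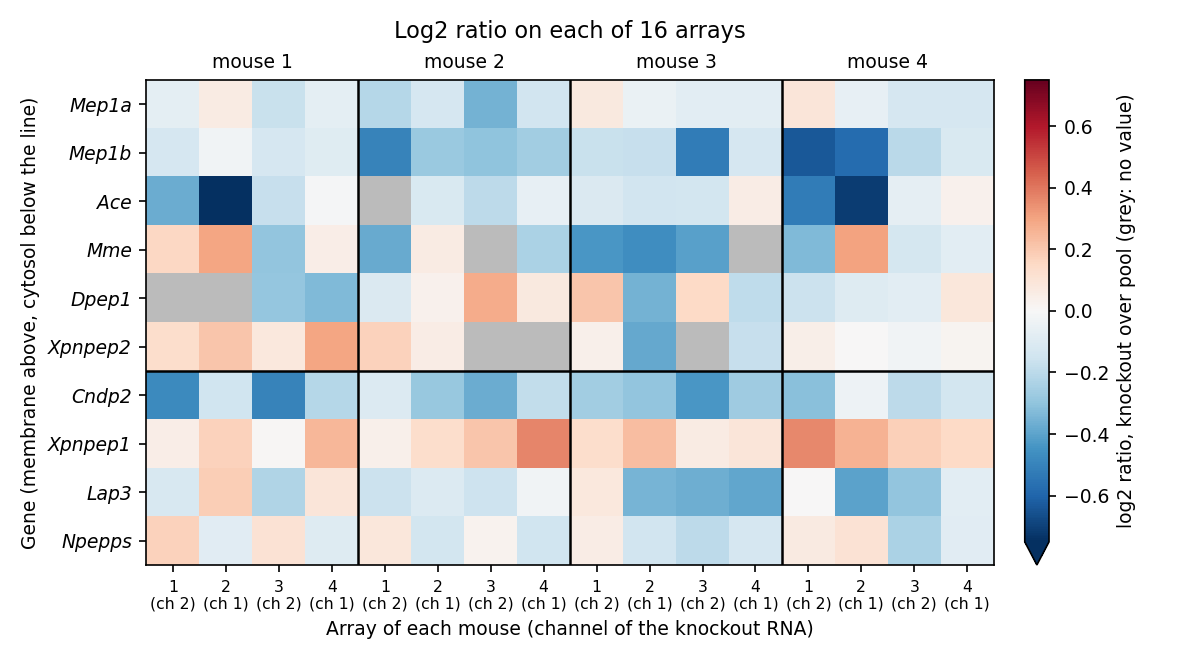
Each cell is the log2 ratio of knockout over pool of 1 gene (rows) on 1 array (columns, grouped by mouse, with the channel of the knockout RNA under each array number). Blue is lower and red higher in knockout, and grey cells have no value. The rows of Mep1b and Cndp2 are below 0 on every array and that of Xpnpep1 above 0 on every array, while Ace is lowest on array 2 of mouse 1 at -1.21.

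Membrane and cytosolic peptidases were then compared as classes. The median log2 ratio was -0.13 over the 6 membrane genes (5 below 0) and -0.09 over the 4 cytosolic genes (3 below 0). Of all genes 51.8% were below 0. In both classes, 2 genes were lower at an unadjusted p under 0.05, and 1 cytosolic gene was higher, where 10% of all genes were lower and 6.8% higher. By mouse the membrane median was -0.08, -0.18, -0.10 and -0.06 and the cytosolic median 0.00, -0.08, -0.18 and -0.10. The membrane class was therefore the lower one in mice 1 and 2 and the higher one in mice 3 and 4. The difference of membrane minus cytosolic medians was -0.01 ± 0.09 (SD, n = 4 mice) as a mean over mice, within the spread between mice. On the gene means the difference was -0.04, and it was 0.00 with knockout RNA in channel 1, -0.09 in channel 2 and 0.03 on arrays 3 and 4, where Mme and Xpnpep2 were not tested and the membrane median is over 4 genes. Classes of 6 and 4 genes chosen by name are described here and not tested.

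Correlations over arrays were computed for each pair of peptidases, within and across the classes. Pairs of membrane genes had correlations from -0.56 (Ace and Mme, 13 arrays) to 0.45 (Mme and Xpnpep2, 12 arrays), with a median of 0.01 over 15 pairs. Pairs of cytosolic genes ran from -0.19 to 0.39, with a median of 0.14 over 6 pairs, 4 of them above 0. The 24 pairs across the classes had a median of 0.05. The highest value, 0.68 over 13 arrays, joined Lap3 with Xpnpep2 across the classes. The arrays share kidneys, pool and dyes, so these are descriptions.

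Between the 4 knockout mice, in a comparison where the shared pool cancels, no peptidase passed limma's moderated F test with arrays as technical replicates, where 2.6% of all genes did. At an unadjusted p under 0.05 there were 2 of 10, against 13.7% of all genes. These were Mme (p = 0.0306, limma adjusted p = 0.285), lowest in mouse 3, and Xpnpep2 (p = 0.0434, adjusted p = 0.342), highest in mouse 1. The lowest F values of the 10 were those of Npepps (0.561) and Xpnpep1 (0.712). Spread between arrays of a mouse was small for Mep1a, Xpnpep1 and Cndp2, with standard deviations of 0.0962, 0.102 and 0.106. Cndp2 is a mean of 2 probes and the other peptidases have 1 probe each, so its spread is not directly comparable.

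Other genes of peptide handling, transporters included, were read from the same fit. Of 49 listed, 23 were measured and Slc15a2 was the 1 that passed the threshold. Of the other 22, 14 were below 0 (51.8% of all genes were) with a median of -0.02, and 1 was at an unadjusted p under 0.05 (16.8% of all genes were). That gene was Scpep1, a serine carboxypeptidase, at -0.26, -0.18, -0.21 and -0.22 in the mice (mean -0.22, SE 0.04, limma adjusted p = 0.115). Cpe, which trims prohormones, stood at 0.09 and Ece1, the endothelin-converting enzyme, at 0.08. The aminopeptidases Metap1 and Metap2, which remove the first methionine of new proteins, stood at -0.07 and -0.08, and the pyroglutamyl peptidase Pgpep1 at 0.08. For these genes the limma adjusted p ran from 0.381 (Cpe) to 0.54 (Metap2).

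Of 14 listed lysosomal peptidases 6 were measured, 1 of them below 0, where 51.8% of all genes were. Their median was 0.11, and none passed the threshold in limma. At an unadjusted p under 0.05 there were 2 higher (Ctsa at 0.16 and Ctsf at 0.10) and 1 lower (Ctsl at -0.12), with limma adjusted p of 0.194, 0.276 and 0.28. Over all genes 6.8% were higher and 10% lower at that unadjusted p. Napsa, an aspartic protease of proximal tubule and lung, stood at 0.14, Ctsb at 0.12 and Ctsd at 0.04. The list is not complete: Scpep1, Prcp, Tpp1 and Dpp7, also lysosomal, were counted above with the other genes of peptide handling. They stood at -0.22, -0.09, -0.03 and -0.02, and a median that takes them in was not computed. The median of 0.11 thus holds for the listed genes only.

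A list of brush border genes that are not peptidases gave a comparison. It includes scaffold proteins, and also Slc22a6 and Aqp1, so it is not limited to proteins of that membrane. Of 33 listed 17 were measured, 11 of them above 0, where 2986 of all 6191 genes were. Their median was 0.05. None passed the threshold in limma, and at an unadjusted p under 0.05 there were 3 higher and 1 lower, where 6.8% and 10% of all genes were. Alpl, tissue-nonspecific alkaline phosphatase, stood at 0.19, 0.22, 0.37 and 0.38 in the mice (mean 0.29, SE 0.05, limma adjusted p = 0.102). Slc9a3r1, the scaffold protein NHERF1, stood at 0.19 and Slc34a3, a phosphate carrier, at 0.14, while the amino acid carrier Slc6a20b stood at -0.15 (limma adjusted p = 0.174, 0.286 and 0.28). Ezr, which links the membrane to actin, stood at 0.11 and Amn, the partner of cubilin, also at 0.11. By mouse the median of these genes was 0.02, 0.02, 0.07 and 0.05, above 0 in each mouse, while that of the membrane peptidases was below 0 in each. Of 11 listed regulators of brush border genes 2 were measured: Ppara stood at 0.17 and Hnf4a at -0.09 (limma adjusted p = 0.185 and 0.363).

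**Figure D4:**
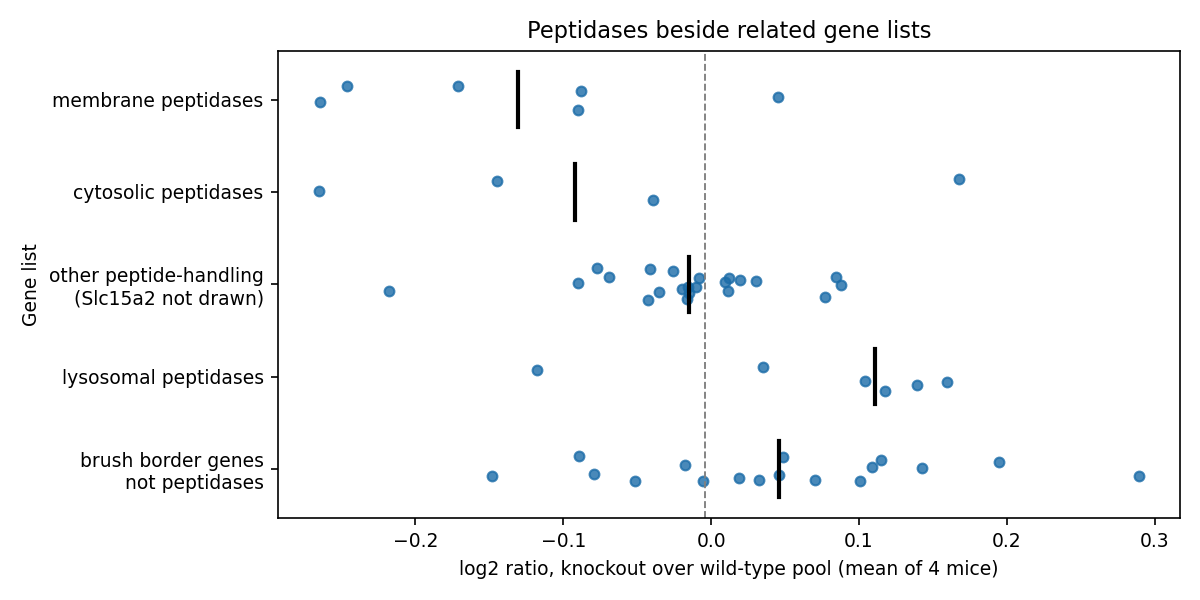
Each point is the log2 ratio of 1 gene (mean of 4 mice, horizontal axis) in 5 gene lists (rows), with the median of each list as a black bar and the median of all genes as a dashed line. The vertical scatter of points within a row has no meaning, and Slc15a2 (-2.51) is not drawn or counted in the median of its row. Medians run from -0.13 (membrane peptidases) to 0.11 (lysosomal peptidases). The lysosomal row leaves out Scpep1, Prcp, Tpp1 and Dpp7, which are drawn with the other peptide-handling genes.

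Genes with array profiles most like those of the other peptidases were taken among genes that share at least 14 arrays. For Cndp2 they were Calr, the chaperone calreticulin (r = 0.91 over 15 arrays, 0.85 without the 2 arrays farthest from the median of Cndp2), and Pafah2, a phospholipase that acts on oxidised phospholipids (0.86 and 0.89). Mep1b was most like the proteasome subunit gene Psma5 (0.84) and Itfg1 (0.81), and Mep1a most like the malic enzyme gene Me1 (0.80) and Ski (0.79). For Mme they were Sf3a3 (0.83) and AV009015 (0.81), and for Dpep1 Foxj1 (0.75) and Sun5 (0.75). Xpnpep1 was most like Dedd2 (0.84) and Kctd17 (0.76), Lap3 most like Mfsd1 (0.86) and Mtch2 (0.84), and Npepps most like Acot3 (0.78) and Prmt1 (0.75). Xpnpep2, with 13 arrays, had no such gene. No peptidase was among the 2 most like genes of another. These correlations, and those given for Ace, are the 2 highest for each peptidase among all genes searched. They rest on arrays that share kidneys, pool and dyes, and were not tested.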

How the data were processed

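RNA of 4 knockout kidneys, each against the same wild-type pool, was measured on 16 two-colour arrays. Per the labels, slides were read with GenePix Pro 3.0, background was taken off the mean intensities, and each array was set to a median ratio of 1. What was deposited is the log2 ratio of both channels for each probe. The base was worked out from the values: 46.5% of distances between each array's most repeated values matched log2 of fractions of small whole numbers, and 0% matched natural or decimal logarithms. The filter behind blank cells was not given in the sources used, and intensities were not analysed.

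Values were read as channel 1 over channel 2 and turned to knockout over pool, after the sign of Slc15a2. The design of the arrays balances 2 arrays per channel in each mouse. Array medians were then set to 0. The value of a mouse was the mean of its orientation means. Probes needed a value in both orientations of every mouse (10804 probes), and the single-gene probes of a gene were averaged (6191 genes). Probe names came from the platform annotation, with 11590 of 11723 single-symbol probes matched by identifier to RefSeq (GRCm38.p6). Two-sided tests of the mean ratio against 0 used lmFit and eBayes of limma 3.58.1, run in R 4.3.3, with Benjamini-Hochberg adjustment over all genes and a threshold of 0.05. Differences between mice used a moderated F test on arrays with a term for the channel. The code of the tests was also run on simulated ratios. The outcome of that run is not given here and lends no weight to the ratios above. Named genes were the 10 peptidases, Slc15a2, genes of each list past the threshold, those of smallest p (up to 6 in each functional list, 2 in each marker or regulator list) and the 2 most like each peptidase over arrays. Prcp, Tpp1 and Dpp7 were named in addition. The peptidases and lists were chosen with earlier results of these data known. For markers, list values are given instead of single genes where no result turns on them. Alternatives were centring, scaling, orientation, array pairs, filters, probe choice, a random block, robust variance and leaving out each mouse.

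Collecting duct markers had a median of 0.05 (6 of 7 above 0), loop and distal tubule markers -0.10 (2 genes), podocyte markers -0.12 (2 genes), smooth muscle and fibroblast markers -0.09 (7 of 8 below 0), blood markers -0.02 (2 genes) and adipose markers -0.14 (2 genes). The 1 measured adrenal marker stood at 0.03. Of all 6191 genes 2986 were above 0 and 3205 below it.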

Additional observations from a re-analysis of the deposited data

Results flagged for a closer look

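Of 14 sets of 4 mouse values examined (the 10 peptidases, both class medians, their difference and Slc15a2), that of Mep1a had a mouse far from the others. Mouse 2 stood at -0.21 and the other three between -0.06 and -0.03, and the gap took up 0.834 of the whole range, just past Dixon's 95% limit for 4 values. Chance puts about 1 in 20 such sets past this limit.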

How the results depend on the processing

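Each peptidase kept the sign of its ratio under every alternative that tested it, except Npepps, which stood at 0.010 with knockout RNA in channel 2 only and at 0.015 on arrays 1 and 2. The number of peptidases past the threshold was 1 (Cndp2) when only probes with a value on all 16 arrays were used. In that setting 6 of the 10 were tested, and 40 of 2681 genes passed. With 1 probe per gene the number was also 1 (Cndp2), where 15 of 6191 genes passed. It was 3 (Cndp2, Mep1b and Xpnpep1) when 16 arrays were fitted with the mouse as a random block, where the correlation within a mouse was put at 0.014, so that technical arrays counted nearly as independent animals. By probe these counts were 1 on all 16 arrays and 4 with the block, and the share of all probes that passed in these settings was not computed. At an unadjusted p under 0.05 the count was 3 on arrays 1 and 2, which tested 8 of the 10 genes, and the membrane median there was -0.069. The share of all genes at that p on these arrays was not computed. Over all genes, 1 passed with knockout RNA in channel 2 only, 4 on arrays 1 and 2, 8 on arrays 3 and 4, 40 with a value on all 16 arrays, 2 with at least 1 value of each mouse and 467 with the block. Leaving out 1 mouse gave 3, 1, 6 and 5 genes without mice 1 to 4, and no peptidase. Leaving out array 2 of mouse 1 was added after the data were seen. The difference of the class medians moved by less than 1 SD between mice from its value of -0.04 under the alternatives run for it, and ran from -0.09 (knockout RNA in channel 2) to 0.03 (arrays 3 and 4). Depth is not known from ratios, and dim spots could not be told from bright ones.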
